A study of Mus musculus with 6 samples.

Results

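Integrin chains and laminin chains were followed in 6 primary cell lines grown from mouse small cell lung carcinoma. The probes were chosen by gene symbol: every integrin alpha or beta chain and every laminin alpha, beta or gamma chain, with the symbol taken from the probe's transcript accession. This gave 54 of 41174 probes and 33 of 18749 named genes, namely 16 integrin alpha chains, 7 integrin beta chains and 10 laminin chains. No probe was matched to Itga10, Itgad, Itgb8 or Lamc1, which were not analysed here. The tumours arose in the lungs of C57BL/6J mice of the genotype Rb1L/L, Trp53L/L, the conditional Rb1 and Trp53 alleles of this tumour model, and this holds for every line. The 3 lines called SMC and the 3 lines called non-SMC form 3 pairs (R716T2, R1563 and R1611, here pairs 1 to 3). Pairs 1 and 3 are from females and pair 2 is from a male. The labels do not spell out SMC, do not give the source of Cre, and do not say whether a line is 1 clone. RNA of each line was hybridised to 1 single-colour Agilent array, and each level is given on the log2 scale with the array's 75th percentile as 0, so that differences between lines, and not levels of different probes, can be compared.

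Integrins are receptors made of 1 alpha and 1 beta chain. They bind the extracellular matrix or other cells and pass force and signals to the actin cytoskeleton through talin and kindlin. Laminins are trimers of 1 alpha, 1 beta and 1 gamma chain that build the basement membrane, the sheet on which epithelia rest. Alpha chains that share Itgb1 bind collagen, laminin or fibronectin according to the alpha chain, Itgav pairs bind the Arg-Gly-Asp (RGD) motif of matrix proteins, and Itgb2 and Itgb7 pairs are known from leukocytes.

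The fraction of probes well above background lay between 64.1% and 68.5% on the 6 arrays, and no probe was saturated. Testing required a signal well above background in all 3 lines of either group, and the brightest such probe stood for its gene. Of the 33 chains, 25 were tested: 16 passed in both groups, 8 through the non-SMC arrays only and 1 through the SMC arrays only. A chain that passed through 1 group only entered the test because that group had detected it, which favours a difference towards that group. The same holds for the genes of the lists below. The targeted genes Rb1 and Trp53 were detected on all arrays: Rb1 lay between 0.27 and 0.64 in SMC lines and between -2.09 and -0.38 in non-SMC lines, and Trp53 between -0.30 and -0.02 in SMC lines and between -0.36 and 0.14 in non-SMC lines. The probes' places relative to the deleted exons are unknown here, so these signals are no check of the deletion. SMC lines 1 and 2 and non-SMC lines 2 and 3 shared a slide, and the other arrays each lay alone on a slide, so only pair 2 had both lines on 1 slide.

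SMC lines were set against the non-SMC lines of the same pairs to find adhesion chains that differ within a pair. The fibronectin receptor chain Itga5, the collagen receptor chain Itga11 and the laminin chains Lama4, Lamb1 and Lamb2 were lower in SMC lines. The laminin receptor chains Itga3, Itga6 and Itgb1 did not pass the test. They were detected in every line of both groups, as were Lama4, Lamb1 and Lamb2. Itga3 and Itgb1 were still lower in SMC lines without overlap of the groups, with differences of -2.53 and -1.43. At a limma adjusted p under 0.05, 5 of the 25 tested chains were lower in SMC and 0 were higher, against a background of 3.03% lower and 0.156% higher among all 19847 features tested. Unadjusted p-values under 0.05 were found for 14 chains with a lower and 1 with a higher SMC signal (background 11.8% and 14.9%). The median difference of the 25 chains was -2.93 (-2.74 with dim signals set to the lowest measurable level), against 0.18 over all features, and 22 of the 25 were negative, where the background was 41.7% of all features. Among the 16 chains detected on all 6 arrays, tested within probes of that kind alone, 3 were lower (Lama4, Lamb1 and Lamb2), and 0 higher (0 also at an unadjusted p under 0.05), against a background of 0.825% lower and 0.0245% higher. Leaving out a pair also leaves fewer residual degrees of freedom for every feature. Without pair 3 none of the 5 chains passed (adjusted p = 0.0618 to 0.0833), and neither did any of the 19847 features. Without pair 1 only Itga5 passed (adjusted p = 0.0471), and of all features 207 were lower and 0 higher. The loss of calls was thus not particular to these chains, and every difference of the 5 kept its sign. Without pair 2, Lamb1 did not pass (adjusted p = 0.0521) and the other 4 chains did, with 495 of all features lower and 521 higher.

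The promoters of 4 of the 5 chains that passed are held in the RefSeq promoter table (GRCm38.p6), and they are shown beside that of Itgb1, the beta partner of both Itga5 and Itga11. Each covers 250 bases before to 50 bases after the gene's start. Capitals mark matches, on either strand, to the AP-1 motif TGANTCA, the TEAD motif GGAATG or the SP1 motif GGGCGG.
Itga5, chr15:103366742-103367041, strand -: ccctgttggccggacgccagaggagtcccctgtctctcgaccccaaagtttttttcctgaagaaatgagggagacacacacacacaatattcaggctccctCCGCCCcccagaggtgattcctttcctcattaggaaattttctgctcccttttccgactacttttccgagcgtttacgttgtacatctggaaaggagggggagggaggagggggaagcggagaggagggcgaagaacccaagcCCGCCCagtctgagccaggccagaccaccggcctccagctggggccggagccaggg
Itga11, chr9:62677605-62677904, strand +: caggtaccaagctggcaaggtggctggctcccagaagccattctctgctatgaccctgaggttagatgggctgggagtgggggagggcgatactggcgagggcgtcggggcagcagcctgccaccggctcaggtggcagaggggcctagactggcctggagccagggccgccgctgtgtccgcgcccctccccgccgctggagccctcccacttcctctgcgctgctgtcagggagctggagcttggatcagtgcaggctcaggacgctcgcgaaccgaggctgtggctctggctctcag
Lamb1, chr12:31265043-31265342, strand +: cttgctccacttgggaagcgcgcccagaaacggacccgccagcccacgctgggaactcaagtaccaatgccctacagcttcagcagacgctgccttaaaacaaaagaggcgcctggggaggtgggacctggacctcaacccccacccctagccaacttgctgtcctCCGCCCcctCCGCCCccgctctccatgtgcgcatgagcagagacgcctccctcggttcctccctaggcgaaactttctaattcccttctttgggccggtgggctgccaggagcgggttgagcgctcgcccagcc
Lamb2, chr9:108479612-108479911, strand +: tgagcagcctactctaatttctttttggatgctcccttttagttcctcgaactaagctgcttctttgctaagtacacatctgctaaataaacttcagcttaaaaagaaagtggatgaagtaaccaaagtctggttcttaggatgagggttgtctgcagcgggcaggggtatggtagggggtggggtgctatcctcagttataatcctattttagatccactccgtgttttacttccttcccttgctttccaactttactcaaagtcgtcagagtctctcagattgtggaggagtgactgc
Itgb1, chr8:128685404-128685703, strand +: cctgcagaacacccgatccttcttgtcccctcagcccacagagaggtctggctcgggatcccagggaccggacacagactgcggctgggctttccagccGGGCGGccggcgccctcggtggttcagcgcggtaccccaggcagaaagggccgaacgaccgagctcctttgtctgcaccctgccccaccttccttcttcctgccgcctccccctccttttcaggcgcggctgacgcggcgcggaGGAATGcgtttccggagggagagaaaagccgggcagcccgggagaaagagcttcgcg
The Itga5 and Lamb1 windows each held 2 SP1 matches and neither of the other motifs, and the Itga11 and Lamb2 windows held no match. The Itgb1 window held 1 TEAD match and 1 SP1 match. Over all 32851 promoters of this length in the table, 7.81% held the AP-1 letters, 14.7% the TEAD letters and 35.7% the SP1 letters. Promoters were found for 21 of the 33 chains, 24 windows in all, of which 3 held AP-1, 2 TEAD and 12 SP1 letters.

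Itga5 forms with Itgb1 a fibronectin receptor that binds RGD. Its signal was -8.65, -8.43 and -7.15 in SMC lines 1 to 3, against 2.25, -0.03 and 1.69 in non-SMC lines 1 to 3. No SMC array measured it well above background, and all non-SMC arrays did. It was at least 194-fold lower in SMC, setting each dim array at the higher of its own signal and the lowest signal well above background (limma adjusted p = 0.0124, 3 pairs). It was also lower on the shared slide alone, with 2 lines per group (adjusted p = 0.0184).

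Itgav, the alpha chain shared by the vitronectin receptors, had signals of -8.64, -2.09 and -2.41 in SMC lines and 1.48, 0.38 and 1.38 in non-SMC lines. SMC line 1 was the only line in which neither Itgav probe was detected, and the groups did not overlap. The difference of -5.46 ± 1.68 (SE) did not pass (adjusted p = 0.154). Itgb5, a partner of Itgav in a vitronectin receptor, was measured on every array, at -4.15, -0.23 and -0.13 in SMC lines against 5.36, 4.97 and 5.91 in non-SMC lines. The groups did not overlap, SMC line 1 was the lowest, and the difference of -6.91 ± 0.96 did not pass (adjusted p = 0.0537). It passed with quantile normalization (adjusted p = 0.0492), median scaling (0.0222) and normexp background correction (0.0228), and without the pairing (0.0254), but not on the shared slide alone (-7.63, adjusted p = 0.113). Itgb3, which pairs with Itgav and, on platelets, with Itga2b, was -1.77, -2.05 and -4.45 in SMC lines against 2.19, 1.52 and 2.28 in non-SMC lines. These groups did not overlap either, and the difference of -4.76 ± 0.75 did not pass (adjusted p = 0.0676, against 0.0234 without the pairing and 0.0333 on the shared slide alone). Itga2b was -6.38, -7.12 and -5.69 in SMC lines, the last alone well above background, against -5.21, -5.84 and -5.61 in non-SMC lines, with a difference of -0.84 ± 0.38 (adjusted p = 0.249).

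Itgb6, an epithelial partner of Itgav, and Itga8, another RGD receptor chain of Itgb1, were not tested. Itgb6 was detected in SMC lines 1 and 2, at -5.24 and -3.15, and in non-SMC lines 2 and 3, at -4.31 and -0.18. Both groups thus held lines with and without a detected Itgb6 signal. The lines without it, SMC line 3 and non-SMC line 1, were also the lines in which Cdh1, the E-cadherin gene, was not detected. The epithelial keratin gene Krt8 was 0.56 in SMC line 3 and 6.63 and 7.18 in SMC lines 1 and 2, against -0.50 in non-SMC line 1 and 6.82 and 7.01 in non-SMC lines 2 and 3. Krt18 and the epithelial adhesion gene Epcam were lowest in the same lines. The summed signal of the 15 lung epithelial markers on the array was 189, 350.2 and 16.0 in SMC lines 1 to 3 and 2.46, 362 and 340.4 in non-SMC lines 1 to 3. The part of these markers, described after their values were seen, in the Itgb6 signal was not tested. Itga8 was detected in SMC line 3 at -5.62 and in non-SMC lines 2 and 3 at -4.71 and -5.12.

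**Figure D1:**
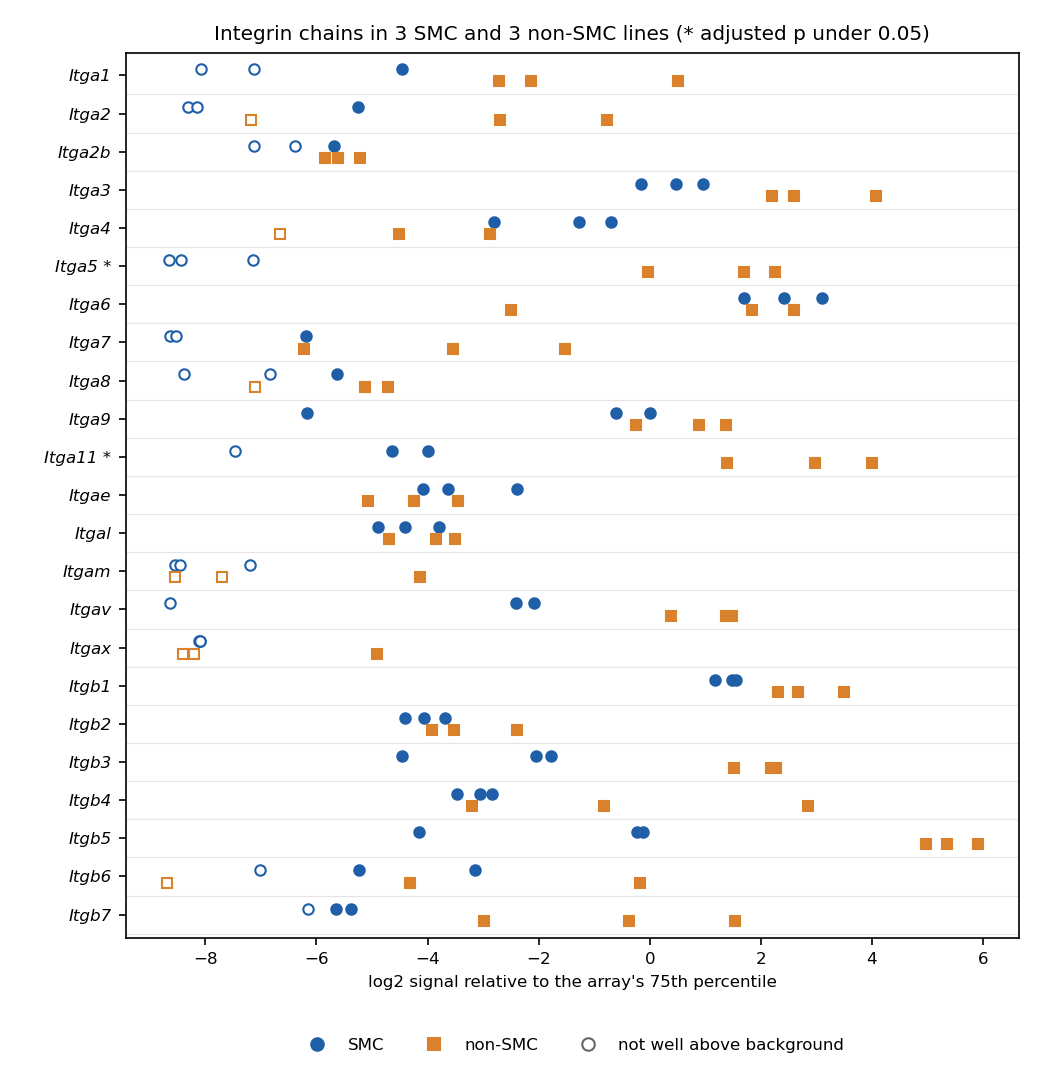
Log2 signal (x axis, relative to the 75th percentile of the array) of each of the 23 integrin chains on the array, by its brightest probe, with SMC lines (circles) above non-SMC lines (squares) in each row; open symbols were not well above background, and an asterisk marks a limma adjusted p under 0.05. Itga5 is open in all 3 SMC lines and filled in all 3 non-SMC lines, while Itgb5 is filled on all 6 arrays with the groups apart.

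Among the collagen receptors, Itga11, a chain of mesenchymal cells that binds fibrillar collagen, was lower in SMC. Its signal was -4.65, -7.46 and -3.98 in SMC lines, the second not well above background, against 4.01, 1.38 and 2.98 in non-SMC lines. The difference was -8.16 ± 0.50 (adjusted p = 0.012), or -7.73 with the dim signal set to the lowest measurable level. On the shared slide alone it was -8.24 and did not pass (adjusted p = 0.0675). Itga1, which binds basement membrane collagen, was detected in SMC line 1 alone of its group, at -4.47, with the others at -8.07 and -7.12, against -2.72, -2.14 and 0.50 in non-SMC lines. Its difference of -5.10 ± 1.26 did not pass (adjusted p = 0.123). Its other probes differed by -4.25 and -2.55. Itga2, a platelet and epithelial collagen receptor chain, was not tested, and was detected in SMC line 3 at -5.25 and in non-SMC lines 2 and 3 at -2.70 and -0.77.

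Most fibroblast markers went the same way as these chains: of 13 tested, 12 differences were negative, where 41.7% of all features were. The exception was Thy1 (0.91 ± 1.06, limma adjusted p = 0.615). Dcn was higher in SMC in pair 1 (5.24) and lower in pairs 2 and 3 (-8.68 and -10.08). Of 13 tested fibroblast markers 7 were lower in SMC and 0 higher by limma (0 higher also at an unadjusted p under 0.05), where 3.03% of all features were lower and 0.156% higher, with a median of -6.77, or -5.82 with dim signals at the lowest measurable level. Of the 4 with the largest fitted differences, the collagen genes Col3a1 and Col1a1 were at least 2318-fold and at least 1527-fold lower and detected in no SMC line. The collagen gene Col1a2 differed by -11.76, and the growth factor receptor gene Pdgfrb, detected in 1 of 3 SMC lines, by -10.26. The summed linear signal of the detected markers, relative to the 75th percentile, was 1.21 to 5.80 in SMC lines and 129.6 to 685 in non-SMC lines, with 7 or 8 and 13 or 14 of the 14 markers detected. Neuroendocrine markers went the other way: all 16 had a positive difference, where 41.7% of all features had a negative one. Their summed signal was 342 to 455 in SMC lines and 21.4 to 177 in non-SMC lines. By limma 0 passed, and 13 were higher at an unadjusted p under 0.05, where 14.9% of all features were. The widest differences were those of the granule gene Chgb (6.16 ± 1.70, adjusted p = 0.137) and the synaptic gene Syt1 (6.02 ± 1.93, adjusted p = 0.161). The part of either marker list in the result was not tested, and in these bulk RNA samples fewer cells of a type and less RNA per cell cannot be told apart.

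No chain of the laminin receptors passed the test. Itgb1, the common beta chain, was 1.49, 1.18 and 1.55 in SMC lines against 3.51, 2.32 and 2.67 in non-SMC lines. The groups did not overlap, and the difference of -1.43 ± 0.34 did not pass (adjusted p = 0.12); the second probe gave -1.41. Itga3, a laminin receptor chain of epithelia, was 0.47, 0.96 and -0.15 in SMC lines against 2.20, 2.59 and 4.07 in non-SMC lines, a difference of -2.53 ± 0.66 (adjusted p = 0.129). Itga6, which pairs with Itgb1 or Itgb4, was 2.42, 3.09 and 1.70 in SMC lines against -2.50, 2.60 and 1.84 in non-SMC lines. Here the groups overlapped, since only non-SMC line 1 was low, and the difference was 1.75 ± 1.15 (adjusted p = 0.383). Itgb4, the hemidesmosome chain, was -2.84, -3.06 and -3.48 in SMC lines against -3.20, -0.82 and 2.86 in non-SMC lines. Non-SMC line 3 stood highest and non-SMC line 1 lay within the SMC range, with a difference of -2.74 ± 1.39 (adjusted p = 0.286). Itga7, a muscle laminin receptor chain, was detected in SMC line 3 alone of its group, at -6.19, with the others at -8.64 and -8.53, against -1.52, -6.22 and -3.54 in non-SMC lines (difference -4.03 ± 1.12, adjusted p = 0.138).

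Itga4 and Itga9 are related alpha chains that bind VCAM1, with fibronectin as a further ligand of Itga4 and tenascin of Itga9. Itga4 was the only tested chain with higher signals in every SMC line than in every non-SMC line, at -2.80, -1.27 and -0.69 in SMC lines against -6.66, -2.88 and -4.51 in non-SMC lines. Non-SMC line 1 was not well above background, and SMC line 1 and non-SMC line 2 lay almost level. On the shared slide alone the difference was 1.66 (adjusted p = 0.31). Over all lines the difference of 3.10 ± 0.59 did not pass (adjusted p = 0.0945), although it did with median scaling (adjusted p = 0.0396) and without pair 2 (3.84, adjusted p = 0.0426). The other 2 Itga4 probes were not detected on any array. Itga9 was 0.01, -0.61 and -6.18 in SMC lines against 0.89, 1.38 and -0.24 in non-SMC lines, so SMC line 3 alone was far below the rest (difference -2.93 ± 1.11, adjusted p = 0.197).

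Groups did not overlap for 13 of the 25 tested chains with SMC lower and for 1 with SMC higher, where the background was 15.4% and 22.8% of all features.

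**Figure D2:**
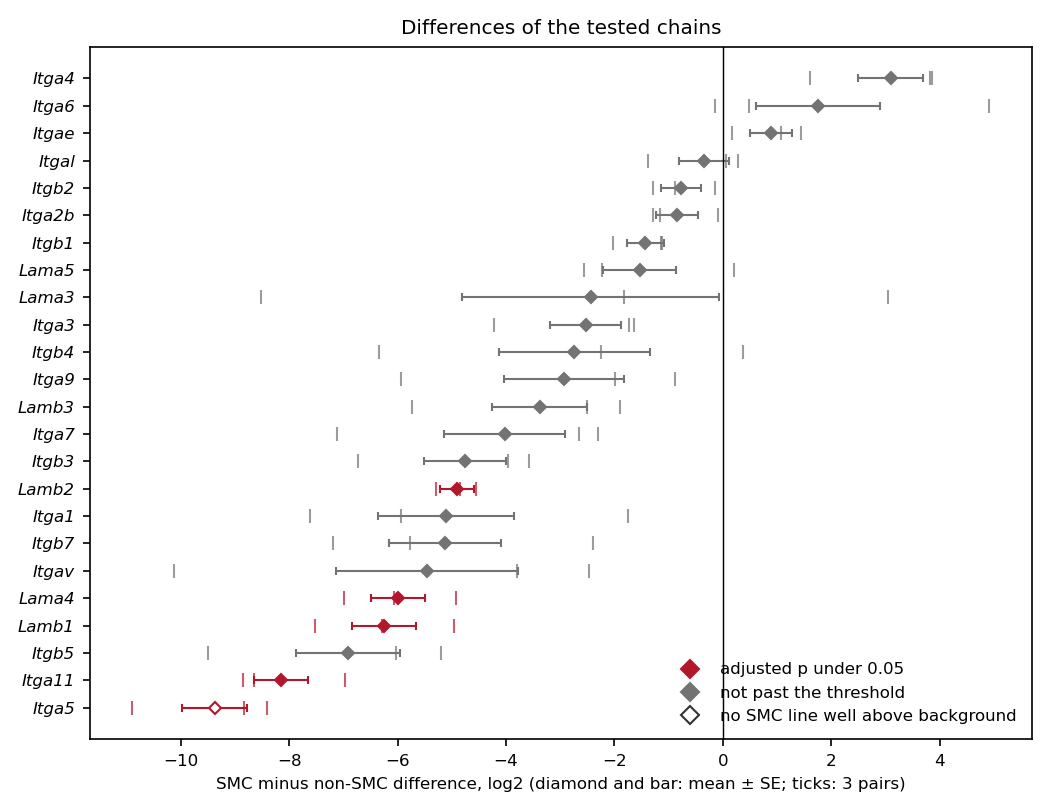
SMC minus non-SMC difference on the log2 scale (x axis) for each tested chain described here. Diamond and bar give the mean and its SE, moderated by limma, and ticks give the 3 pairs. Red marks a limma adjusted p under 0.05. Itga5, the open diamond, was not well above background in any SMC line, so its place shows the fitted value and not a measured size. The other differences run between -8.16 for Itga11 and 3.10 for Itga4, and 3 of the 5 red chains are laminins.

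No chain of the leukocyte integrins passed the test. Itgb2, the common chain of the leukocyte family, lay between -4.41 and -3.69 in SMC lines and between -3.93 and -2.40 in non-SMC lines, and Itgal, its partner on lymphocytes, between -4.89 and -3.79 in SMC lines and between -4.70 and -3.51 in non-SMC lines. Neither separated the groups (differences -0.77 ± 0.36 and -0.35 ± 0.46, adjusted p = 0.258 and 0.66), and a second Itgal probe had the opposite sign, at 1.15. Itgam and Itgax, the myeloid partners of Itgb2, were detected in non-SMC line 3 alone, at -4.14 and -4.92. Itgae, which binds E-cadherin, was -3.63, -4.08 and -2.39 in SMC lines and -5.07, -4.25 and -3.45 in non-SMC lines (difference 0.89 ± 0.38, adjusted p = 0.23). Its partner Itgb7 was -6.15, -5.64 and -5.38 in SMC lines, the first not well above background, against -0.37, 1.54 and -2.97 in non-SMC lines. These groups did not overlap, and the difference of -5.12 ± 1.03 did not pass (adjusted p = 0.102).

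Leukocyte markers varied between lines of both groups. Of 21 markers on the array, 6, 10 and 12 were detected in SMC lines 1 to 3 and 10, 12 and 16 in non-SMC lines 1 to 3, and their summed linear signal was 1.88 to 18.9 in SMC lines and 2.18 to 17.4 in non-SMC lines. Most of the SMC sums was 1 gene, Coro1a, an actin regulator, with 1.73, 18.5 and 3.17 in SMC lines 1 to 3 and 0.0314, 5.37 and 0.543 in non-SMC lines 1 to 3. Without Coro1a, left out after its values were seen, the sums were 0.152 to 1.48 in SMC lines and 2.15 to 16.8 in non-SMC lines, and the groups did not overlap. Cd14 remained in these sums, at log2 signals of 0.66, 1.96 and 3.54 in non-SMC lines 1 to 3 and between -6.47 and -4.53 in SMC lines. With Cd14 taken out as well, also after its values were seen, SMC line 3 lies above non-SMC lines 1 and 2. The groups then overlap, so the separation rests on this 1 gene. The pan-leukocyte gene Ptprc was detected in SMC line 1 at -5.87 and in non-SMC line 3 at -3.55, and in no other line. Of 7 tested markers 1 was lower in SMC and 0 were higher by limma, where the background was 3.03% lower and 0.156% higher. At an unadjusted p under 0.05, 2 were lower and 1 higher (background 11.8% and 14.9%). The marker lower by limma was Cd14, a lipopolysaccharide co-receptor (-7.71 ± 0.70, adjusted p = 0.0233). Cd14 was detected in 2 of 3 SMC lines and entered the test through the non-SMC arrays only. The part of the leukocyte markers in the Itgam and Itgax signals was not tested.

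Pairing the chains as known integrins gave 21 pairs with both chains on the array, out of 24 listed. Both chains were detected for 8, 12 and 16 pairs in SMC lines 1 to 3, and for 14, 19 and 21 pairs in non-SMC lines 1 to 3, so the groups overlapped in this count. Within each pair of lines the SMC line had fewer, by 6, 7 and 5 in pairs 1 to 3. Itga5 with Itgb1 was the one pair found in every non-SMC line and in no SMC line. For the 7 RGD pairs the counts were 0, 4 and 5 in SMC lines and 5, 7 and 7 in non-SMC lines. The laminin pairs gave 3, 3 and 4 of 4 in SMC lines and 4 of 4 in each non-SMC line. Itga3 with Itgb1, Itga6 with Itgb1, Itga6 with Itgb4, Itga9 with Itgb1 and Itgal with Itgb2 were complete in all 6 lines. For the 3 collagen pairs the counts were 2, 0 and 2 in SMC lines and 2, 3 and 3 in non-SMC lines. SMC line 1, which lacked a detected Itgav signal, had no complete RGD pair. These are counts of transcripts above background and carry no test.

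**Figure D3:**
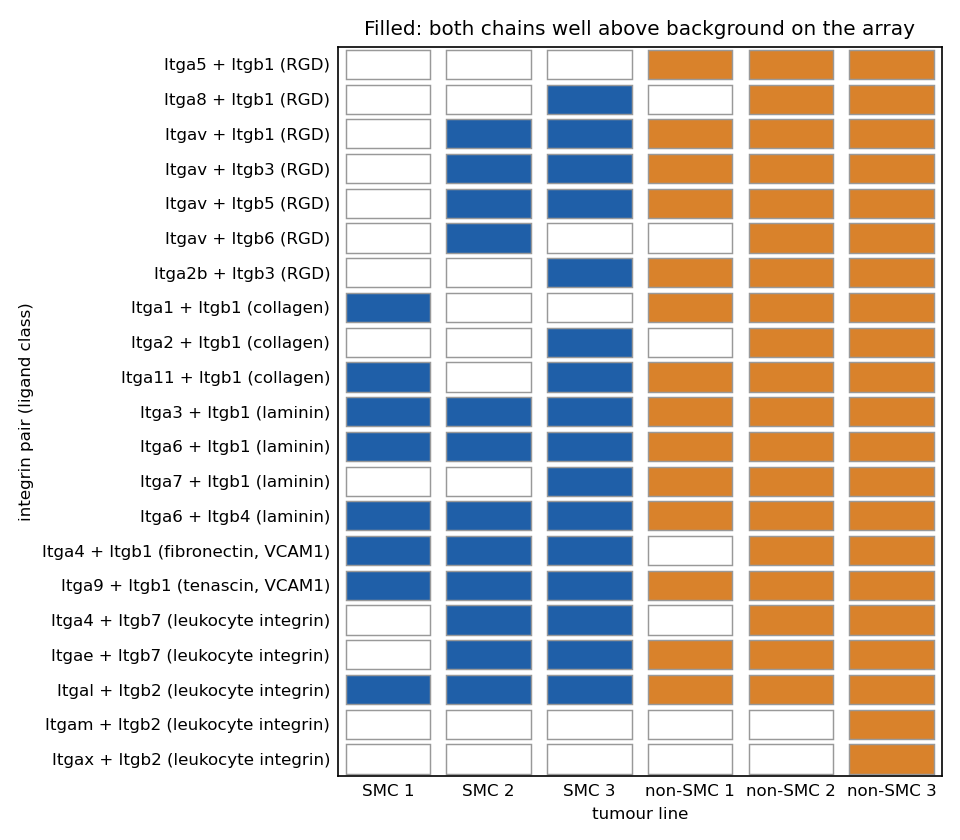
Detection of 21 integrin pairs (y axis, ligand class in brackets) in each of the 3 SMC and 3 non-SMC lines (x axis); a filled box means that both chains were well above background on that array. SMC line 1 has 8 filled boxes and non-SMC line 3 has 21, and the rows for Itga3, Itga6 and Itga9 with Itgb1 are filled throughout.

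Of the laminin chains, 3 of 7 tested were lower in SMC (Lama4, Lamb1 and Lamb2) and 0 higher by limma, where the background was 3.03% lower and 0.156% higher. The median difference was -3.38, against 0.18 over all features. Lamb1, the beta chain of the widespread laminins, was -5.09, -4.09 and -1.63 in SMC lines against 2.43, 2.19 and 3.33 in non-SMC lines. SMC line 3 was the highest of its group and still below every non-SMC line, and the difference was -6.25 ± 0.59 (adjusted p = 0.0248). Lamb2, the beta chain of laminins at synapses and vessels, was -4.33, -3.42 and -3.33 in SMC lines against 0.95, 1.13 and 1.52 in non-SMC lines. Both groups were tight, and the difference of -4.90 ± 0.31 (adjusted p = 0.0124) lay between -5.28 and -4.55 in the 3 pairs. On the shared slide alone, Lamb1 and Lamb2 differed by -7.35 and -5.21 (adjusted p = 0.0226 and 0.0237). Lamb3, a beta chain found only in the anchoring laminin of epithelia, was -5.32, -5.12 and -4.46 in SMC lines against -3.43, -2.62 and 1.29 in non-SMC lines. The groups did not overlap, and the difference of -3.38 ± 0.88 did not pass (adjusted p = 0.13).

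Of the alpha chains, Lama4, a chain of vessels and mesenchymal tissue, was lower in SMC. It was -5.21, -6.01 and -6.01 in SMC lines against -0.28, 0.05 and 0.99 in non-SMC lines, a difference of -6.00 ± 0.50 (adjusted p = 0.0202) and of -6.13 on the shared slide alone (adjusted p = 0.0236). A second Lama4 probe, not well above background in any SMC line, gave -5.22, and the remaining probe had no usable spot in SMC line 3. Lama5, the main alpha chain of adult epithelial basement membranes, was 0.48, 0.20 and 0.64 in SMC lines against 0.27, 2.77 and 2.87 in non-SMC lines. Non-SMC line 1 lay within the SMC range, and the difference was -1.53 ± 0.67 (adjusted p = 0.238). Lama3, the alpha chain of the anchoring laminin, was -3.43, -5.20 and -8.38 in SMC lines, the last not well above background, against -6.47, -3.37 and 0.14 in non-SMC lines. The pairs went in different directions, with differences of 3.04, -1.83 and -8.52 and a mean of -2.44 ± 2.37 (adjusted p = 0.547). A second Lama3 probe, not kept for the test, was -6.09, -6.41 and -5.45 in SMC lines, against -5.33, -6.01 and -6.27 in non-SMC lines. Its difference was -0.11, and it was detected in SMC line 3, where the brightest probe was not. Lama1, an embryonic alpha chain, was detected in non-SMC lines 1 and 2 alone, at -3.21 and -3.74, and Lama2, the muscle alpha chain, in no line, so neither was tested.

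The gamma chain Lamc3 was not tested. It was detected in SMC line 3 at -5.87 by its brightest probe and in non-SMC line 1 at -6.25, and its second probe was detected in non-SMC line 2 alone, at -5.43. Of 13 listed laminin trimers, 3 had all chains on the array, because the other 10 contain Lamc1. All chains of 0, 0 and 2 of these trimers were detected in SMC lines 1 to 3, and of 2, 2 and 0 in non-SMC lines 1 to 3. The trimers of Lama4 or Lama5 with Lamb2 and Lamc3 were complete in SMC line 3 and non-SMC lines 1 and 2, the lines in which a Lamc3 probe was detected.

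**Figure D4:**
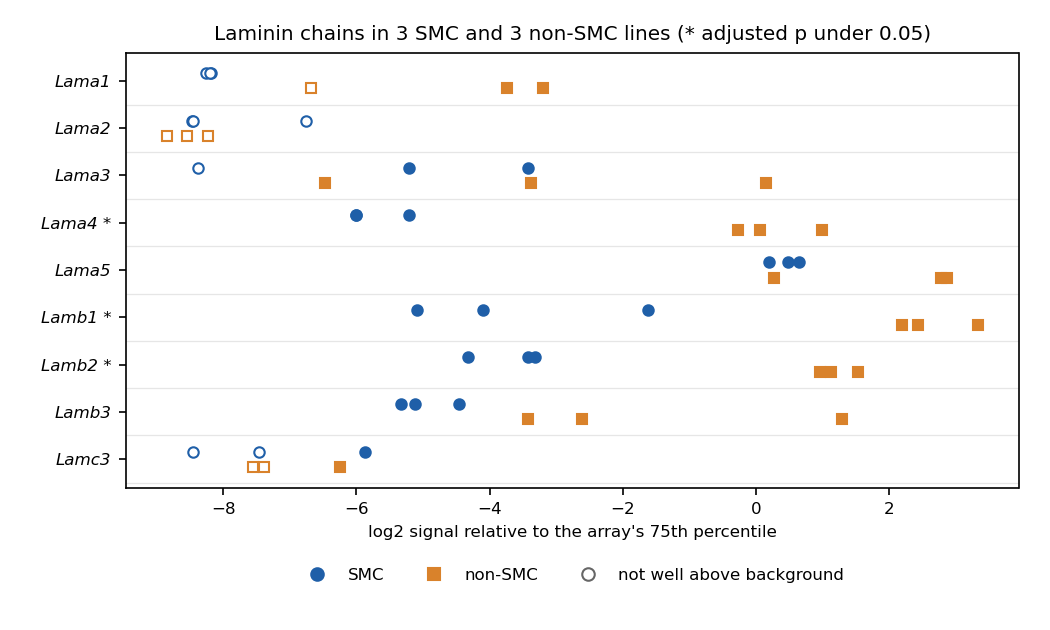
Log2 signal (x axis, relative to the 75th percentile of the array) of each laminin chain described here, by its brightest probe, with SMC lines (circles) above non-SMC lines (squares) in each row; open symbols were not well above background, and an asterisk marks a limma adjusted p under 0.05. Lama4, Lamb1 and Lamb2 are filled on all 6 arrays with the groups apart, while Lama1 is open in all 3 SMC lines and Lama2 in all 6 lines.

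Several matrix ligands of these receptors were lower in SMC. Of 23 tested integrin ligands other than laminins, 10 were lower and 0 higher by limma (0 higher also at an unadjusted p under 0.05), where the background was 3.03% lower and 0.156% higher, with a median of -6.95 (-6.43 with dim signals at the lowest measurable level) against 0.18 over all features. Most of the lower ligands were not detected in every SMC line. They entered the test through the non-SMC arrays only, which favours a lower SMC signal. No count was taken over ligands detected on all 6 arrays alone. Col1a1, Col1a2 and Col3a1, among the lower ligands, were also among the lower fibroblast markers above, so these lists partly repeat the same values. The 4 with the widest fitted differences, the phosphoprotein gene Spp1, the matricellular gene Ccn2 and the collagen genes Col3a1 and Col1a1, were between at least 1527-fold and at least 10260-fold lower and not well above background in any SMC line. Their order holds for fitted values alone: with dim signals at the lowest measurable level Col3a1 and Col1a1 differed by -11.18 and -10.58, and Col1a2, detected on all 6 arrays, by -11.76. Fn1, the fibronectin ligand of Itga5 with Itgb1, and Tnc, the tenascin ligand of Itga9 with Itgb1, were chosen for mention after their values were seen. The same holds for Vtn, the vitronectin ligand of Itgav pairs. Fn1 was -7.77, -4.63 and -4.77 in SMC lines, the first not well above background, against 2.63, 2.65 and 3.67 in non-SMC lines (difference -8.71 ± 0.70, adjusted p = 0.0185). Tnc was at least 192-fold lower in SMC, detected in no SMC line and at 0.60 to 1.89 in non-SMC lines (adjusted p = 0.00848). Vtn was not lower: it was -3.96, -4.95 and -2.61 in SMC lines, all well above background, against -8.84, -0.95 and -8.23 in non-SMC lines. Only non-SMC line 2 was well above background, and the difference was 2.17 ± 2.19 (adjusted p = 0.562). Of the 23 tested ligands, 20 differences were negative and 3 positive.

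In the basement membrane list, laminins left out, 3 of 30 tested genes were lower in SMC and 0 higher by limma, with a median of -1.61. The background was 3.03% lower and 0.156% higher. At an unadjusted p under 0.05, 11 were lower and 3 higher, where the background was 11.8% and 14.9%. The matrix glycoprotein Sparc differed by -11.74 ± 0.51 and was detected in 2 of 3 SMC lines, and Fbln2, a fibulin that binds laminin networks, by -9.81 ± 1.02 (adjusted p = 0.00745 and 0.0301). Col4a5, a type IV collagen chain, was at least 35.2-fold lower and detected in no SMC line (adjusted p = 0.00821). Inside the cell, 2 of 34 tested genes of the integrin adhesion complex were lower and 0 higher by limma. This lower share was not far above the 3.03% of all features. These were Flna, which links integrin tails to actin, at -2.59 ± 0.29 (adjusted p = 0.0358), and the adaptor Tns1, at -2.29 ± 0.28 (adjusted p = 0.0434). At an unadjusted p under 0.05, however, 19 of the 34 were lower and 1 higher, where the background was 11.8% and 14.9%. Of the 34 differences 26 were negative, against 41.7% of all features, with a median of -1.24.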

How the data were processed

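RNA of 3 SMC and 3 non-SMC lines was hybridised to 1 array each, 1 dye (Cy3). The array design was 014868 and the scanner software Feature Extraction 10.7.3.1, per the file headers; the submitters' processing notes give 10.7. The deposited intensity used, the processed signal, is background-subtracted within the array and not normalized between arrays, per the file headers. The deposited log2 values had equal medians (5.07) and correlated at 0.996 or more with log2 of their own array's processed signal; they served as an alternative. No header or label used here gives further steps by the authors.

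Spots that were controls (1639) or outliers were left out, values of a probe's spots were averaged, and log2 signal minus the array's 75th percentile (485 to 696 intensity units) was used. The arrays hold no gene symbols in the columns used, so 27479 of 41174 probes were named by matching unversioned accessions to a RefSeq table (GRCm38.p6), and chains were chosen by those symbols. Probes without a usable spot on an array (50) were left out. A probe counted as detected if most of its usable spots were well above background, and the brightest kept probe stood for a gene. limma 3.58.1 (R 4.3.3; lmFit, eBayes) was fitted with pair and group over 19847 features, two-sided, with Benjamini-Hochberg adjustment, 2 residual and 2.07 prior degrees of freedom. Each p-value and SE reflects how far 3 pairs differ among themselves, with the variance of a feature moderated by limma towards that of all features. So few arrays limit the precision. The labels give the pairs; deviations from group means correlated at -0.01, 0.14 and 0.00 within pairs 1 to 3 and between -0.15 and 0.13 across pairs, so the values do not show the pairing. The fit was tested on simulated data. The normexp alternative (offset 50) used the median spot and background signals, in place of the planned mean spot signal. A chain counted towards an integrin pair or trimer if any of its probes was detected.

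Values on every array are given for chains past the threshold, for chains whose groups do not overlap and for their partners; of each gene list, up to 4 genes past the threshold with the largest difference are named, or 2 if none passed. The chains and the lists (adhesion complex, ligands, basement membrane, counter-receptors, and leukocyte, fibroblast, endothelial, platelet, neuroendocrine and lung epithelial markers) were chosen with earlier results of these data known. The values of 1 laminin chain are not reported here; the counts and medians over all chains include it, and the trimer counts do not.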

Additional observations from a re-analysis of the deposited data

How the results depend on the processing

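Over 19 alternatives, 404 of 447 values of single chains kept their direction and side of the threshold, 24 passed in addition, 15 no longer passed and 4 changed sign. Against 31 features higher and 602 lower in SMC, the counts were 239 and 974 with median scaling, 7 and 383 without the filter, 4 and 135 for probes detected on all 6 arrays, and 274 and 975 with no replicate block, that is without the pairing. The number higher was 52 with normexp, 9 with slide as a block and 20 on the shared slide alone. Leaving out a pair, or a single line without the pairing, gave 0 to 1559 higher and 0 to 1147 lower. Without pair 3 both were 0 by limma (at an unadjusted p under 0.05, 924 and 1743), and without pair 1, 0 were higher (1491 unadjusted) and 207 lower. Of the chains, 5 lower and 0 higher became 8 lower and 1 higher (Itga4) with median scaling, 3 lower on probes detected on all 6 arrays, 7 without the pairing (Itgb3 and Itgb5 in addition), and 0 to 10 lower and 0 to 1 higher when lines were left out. Over all features the median difference, 0.18 as reported, came to 0.10 under median scaling and to 0.08 under normexp.

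Signs turned for Itgae on the shared slide (-0.0038), Itgal with the mean of its probes (0.403) and without pair 1 (0.175), and Lama3 (0.606) without pair 3; the cause was not tested. When pairs or lines were left out, Itgal ranged between -0.69 and 0.175 and Lama3 between -5.18 and 0.606. With the brightest probe alone, non-SMC line 2 had 0 complete laminin trimers in place of 2, since its Lamc3 signal came from the other probe. The differences ranged from -8.86 to -5.47 for Itga11, -6.55 to -3.41 for Lama4, -7.35 to -5.03 for Lamb1 and -5.39 to -3.80 for Lamb2. Choosing probes by a symbol column instead of the accession was not run. Probes near background limit what a difference in dim chains can show.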

Other observations

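Cell-surface partners of the integrins, namely counter-receptors, tetraspanins and associated membrane proteins, held 4 genes lower in SMC among 18 tested and 0 higher by limma. The background was 3.03% lower and 0.156% higher over all features, and the median of the list was -1.66. At an unadjusted p under 0.05, 9 were lower and 2 higher, where the background was 11.8% and 14.9%. Vcam1, the counter-receptor of Itga4 and Itga9, was at least 463-fold lower and was detected in no SMC line (adjusted p = 0.00746). Cav1, the caveolar coat protein gene, differed by -8.93 ± 0.86 (adjusted p = 0.0262), Plaur, the urokinase receptor gene, by -7.98 ± 0.31 (adjusted p = 0.00704), and the tetraspanin gene Cd82 by -4.15 ± 0.40 (adjusted p = 0.0261).

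For the next 3 lists the background over all features was 3.03% lower and 0.156% higher by limma. At an unadjusted p under 0.05 it was 11.8% lower and 14.9% higher, and 41.7% of differences were negative. By limma, 0 of 3 tested endothelial markers passed (at an unadjusted p under 0.05, 1 was lower), the widest differences being those of Kdr (-1.79 ± 0.64, detected in 1 of 3 SMC lines) and Esam (-0.60 ± 0.59). Of 3 tested platelet markers 0 passed (1 lower unadjusted), with Ppbp detected in every non-SMC line and in no SMC line (adjusted p = 0.108) and Gp1bb at 1.24 ± 0.75. Of 10 tested lung epithelial markers 0 passed (1 lower and 1 higher unadjusted), with 6 differences positive and 4 negative. The widest were those of Sftpc (3.25 ± 1.66), the lung transcription factor gene Nkx2-1 (3.18 ± 0.99), Hopx (-3.02) and Krt5 (-2.87), the last 2 named after their values were seen.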
